A study of Mus musculus with 12 samples.

Results

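Long noncoding RNAs that stay in the nucleus or arise from imprinted loci were followed across 12 mouse heart libraries: Malat1, Neat1, Meg3, Rian, Mirg, Firre, Tug1 and Kcnq1ot1. They were taken by gene symbol from the matrix of raw counts, where all 8 were found among 27504 genes, and they had been picked because of their levels in these same libraries. Their AngII and sham levels are therefore a description, and nothing is read from the test calls counted on that contrast. Hearts came from C57BL/6 wild type mice at postnatal day 45. A cardiac hypertrophy model made with angiotensin II (AngII), a peptide hormone that constricts vessels and loads the heart, was set beside sham operation. In each arm the mice then received, into the stomach for 7 days, either the vehicle alone or gastrodin, a phenolic glucoside from an orchid, at 5 or 50 mg/kg/d. There were 6 groups of 2 libraries each, and the libraries are called here by the numbers in their titles. Libraries 1 and 2 were AngII with vehicle, 3 and 4 AngII with 5 mg, and 5 and 6 AngII with 50 mg. Libraries 7 and 8 were sham with vehicle, 9 and 10 sham with 5 mg, and 11 and 12 sham with 50 mg. Whether each of them is a separate animal is not stated, so the spread between libraries may be partly technical.

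Long noncoding RNAs are transcripts that are not translated, and many of them act where they are made. Malat1 gathers in nuclear speckles, bodies rich in splicing factors, and its neighbour Neat1 is the scaffold on which paraspeckles are built. Malat1 and the long form of Neat1 do not end in a poly(A) tail: each has a genome-encoded A-rich tract at its end that folds back on U-rich tracts into a triple helix. Meg3, Rian and Mirg lie in one row on the maternal copy of the Dlk1-Dio3 imprinted domain and host microRNAs or small nucleolar RNAs. Kcnq1ot1 is made from the paternal copy of the Kcnq1 domain and silences neighbouring genes. Firre is an X-linked RNA of repeated exons that binds the nuclear matrix protein hnRNP U, and Tug1 is a widely expressed RNA found in the nucleus and the cytoplasm.

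The ends of Malat1 and Neat1 show what these 2 RNAs have in common outside their levels. Both are single-exon genes on the minus strand of chromosome 19 (GRCm38, GENCODE M21), Malat1 at chr19:5795690-5802672 and Neat1 at chr19:5824708-5845478. The lines below give 120 bases of each, 5′ to 3′, ending at the A-rich tract. Capitals mark the 11 bases shared at that end and the longest other run the windows share, of 16 bases, which is U-rich in the RNA. In the annotation Neat1 stops at the tract, while the annotated Malat1 runs 292 bases further.
Neat1 3′ end, chr19:5824708-5824827, minus strand: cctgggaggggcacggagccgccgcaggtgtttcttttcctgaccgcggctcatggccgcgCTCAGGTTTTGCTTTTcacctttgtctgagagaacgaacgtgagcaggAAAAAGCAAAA
Malat1 A-rich tract, chr19:5795982-5796101, minus strand: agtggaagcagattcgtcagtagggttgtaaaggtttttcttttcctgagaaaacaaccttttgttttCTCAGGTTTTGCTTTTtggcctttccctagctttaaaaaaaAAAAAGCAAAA

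Promoter windows of 300 bases (250 before to 50 after the start, RefSeq on GRCm38.p6) were at hand for 7 of the 8 genes. They are shown for Malat1, Meg3 and Firre, whose AngII and sham libraries did not overlap, and for Rian, whose arms did. Not shown are Mirg, whose arms did not overlap either, Tug1, Kcnq1ot1 and a further window of Meg3. Capitals mark 3 words searched on both strands: TGACGT, the core of the cyclic AMP response element, CCAAT, the CCAAT box, and CACGTG, an E-box. Matches on the 2 strands can overlap, as in Meg3, and then run together in capitals.
Malat1, chr19:5802623-5802922, minus strand: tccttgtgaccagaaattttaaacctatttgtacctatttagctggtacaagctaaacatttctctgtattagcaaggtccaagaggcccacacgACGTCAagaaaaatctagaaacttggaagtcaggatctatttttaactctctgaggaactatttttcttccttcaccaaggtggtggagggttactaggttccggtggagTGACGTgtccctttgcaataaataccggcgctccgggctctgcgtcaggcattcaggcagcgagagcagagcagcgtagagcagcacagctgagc
Meg3, chr12:109540746-109541045, plus strand: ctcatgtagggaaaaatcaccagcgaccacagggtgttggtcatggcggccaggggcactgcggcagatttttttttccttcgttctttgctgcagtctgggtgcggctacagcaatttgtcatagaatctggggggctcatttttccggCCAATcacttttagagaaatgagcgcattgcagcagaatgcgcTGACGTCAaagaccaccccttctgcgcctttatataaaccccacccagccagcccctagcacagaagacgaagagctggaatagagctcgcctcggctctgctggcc
Firre, chrX:50635272-50635571, minus strand: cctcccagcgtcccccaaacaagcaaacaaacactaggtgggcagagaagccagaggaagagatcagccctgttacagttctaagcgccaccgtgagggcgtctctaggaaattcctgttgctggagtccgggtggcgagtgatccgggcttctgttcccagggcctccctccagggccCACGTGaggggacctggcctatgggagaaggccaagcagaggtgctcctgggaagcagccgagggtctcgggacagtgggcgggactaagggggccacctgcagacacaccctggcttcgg
Rian, chr12:109603695-109603994, plus strand: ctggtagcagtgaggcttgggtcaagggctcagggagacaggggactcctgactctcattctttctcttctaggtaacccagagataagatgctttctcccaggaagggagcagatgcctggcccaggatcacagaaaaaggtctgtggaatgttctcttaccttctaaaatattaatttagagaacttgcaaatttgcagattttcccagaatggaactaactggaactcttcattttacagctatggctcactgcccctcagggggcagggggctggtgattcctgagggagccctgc
TGACGT occurred in 3 of the 7 genes (Malat1, Meg3 and Kcnq1ot1), against 7.51% of all 32817 promoter windows of this length. CCAAT occurred in 3 (Meg3, Mirg and Kcnq1ot1), against 37.4% of windows, and CACGTG in Firre alone, against 7.15%. The Mirg window, chr12:109734731-109735030, lies inside the Mirg gene of GENCODE, which begins at 109729764. It covers the microRNA genes Mir668 and Mir485, so by that annotation its CCAAT is in the gene body. The windows of Tug1 and the further one of Meg3 also lie inside their GENCODE genes. Kcnq1ot1, whose arms overlapped, held 1 TGACGT and 3 CCAAT, while Tug1 and the further Meg3 window held none of the 3 words. Meg3 was counted over both of its windows, whereas the percentages are per window. These letters are a description of the windows, and no binding was measured in these hearts.

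Total counts ran from 63488815 to 78604709 per library, but 63.1 to 74.5% of them fell on the 37 mitochondrial genes. Levels are given as CPM, a gene's counts scaled to one library size for all libraries after adjustment by TMM, which aligns the bulk of genes between libraries. Each library's other-gene share, the percent of counts on the 27424 genes outside mitochondrial sequence and ribosomal RNA loci, was 13.96 (library 1), 9.47 (2), 20.3 (3), 7.49 (4), 9.66 (5) and 18.7 (6) in AngII. In sham it was 7.56 (7), 10.4 (8), 6.34 (9), 8.17 (10), 7.01 (11) and 9.36 (12). Libraries 1, 3 and 6 thus lay above every sham library, and libraries 2, 4 and 5 within the sham range. Taken over everything outside the 37 mitochondrial genes, the share was 25.8 to 36.9% in AngII and 25.5 to 36.1% in sham, where the highest value was library 12, with 10.8% of its counts on ribosomal RNA loci. In whole heart RNA, fewer cells of a type and less RNA per cell cannot be told apart.

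**Figure D1:**
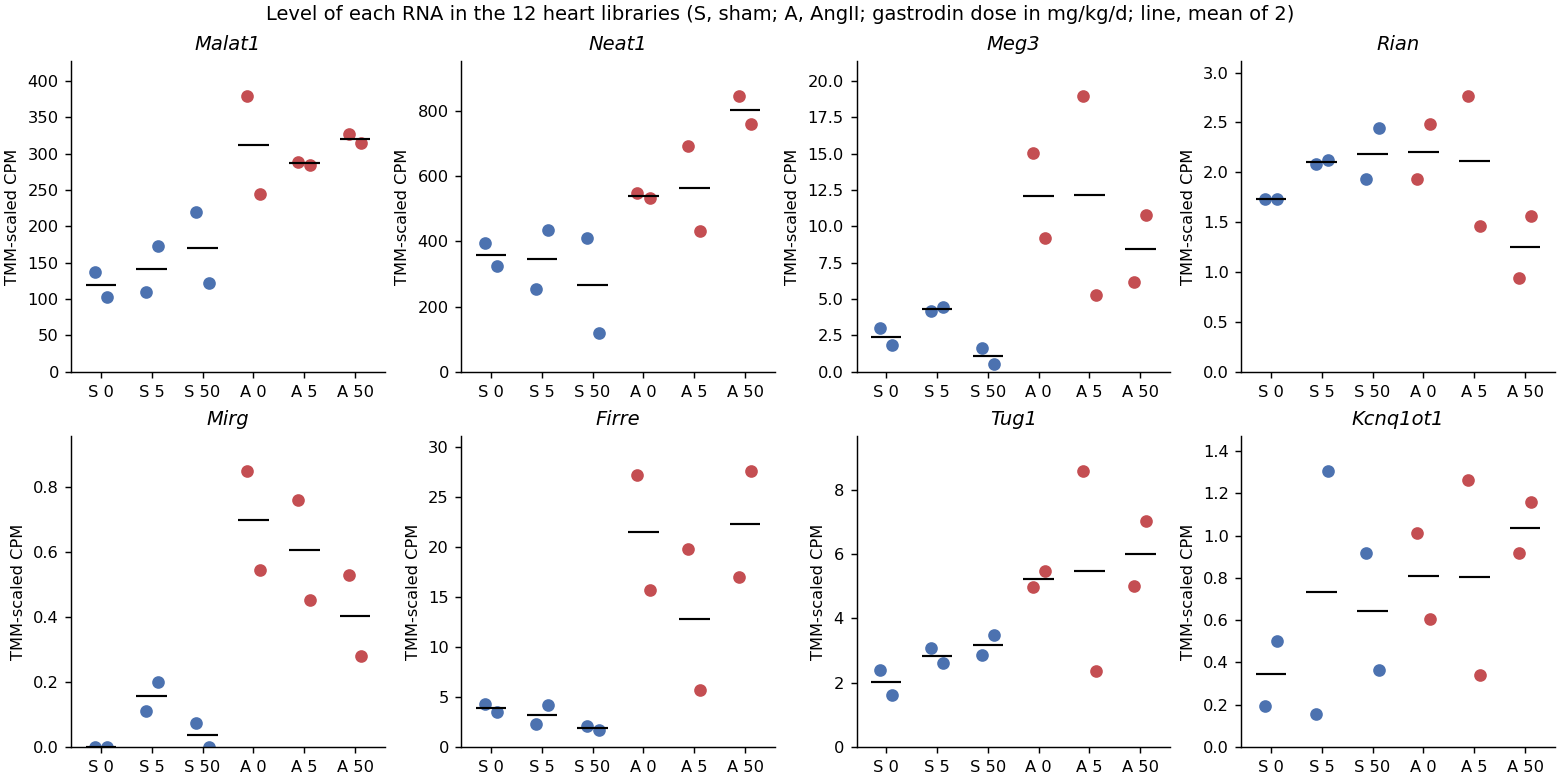
Level of each of the 8 RNAs in TMM-scaled CPM (linear axis from 0) in each library, by group: S, sham, blue; A, AngII, red; 0, 5 and 50, gastrodin in mg/kg/d; the line is the mean of 2 libraries. AngII points lie above all sham points for Malat1, Meg3, Mirg and Firre, while those of Rian and Kcnq1ot1 overlap the sham points.

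The 2 RNAs of nuclear bodies made up most of the signal. Malat1 and Neat1 together held 94.8 to 98.5% of the counts of the 8 genes, and the 8 together held 0.754 to 1.17% of the other-gene counts in AngII libraries and 0.265 to 0.674% in sham libraries. Malat1 stood at 379.7 and 244.4 CPM in libraries 1 and 2, 287.8 and 285.0 in 3 and 4, and 326.4 and 314.0 in 5 and 6. In sham it stood at 137.7 and 102.4 CPM in libraries 7 and 8, 109.5 and 172.7 in 9 and 10, and 219.2 and 122.0 in 11 and 12. Every AngII library lay above every sham library, with the lowest AngII value in library 2 and the highest sham value in library 11. The means were 306.2 ± 45.8 CPM in AngII and 143.9 ± 44.6 in sham (SD, n = 6), and the fitted difference averaged over the 3 doses was 1.10 ± 0.22 on the log2 scale (SE).

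Neat1 stood at 546.6 and 531.6 CPM in libraries 1 and 2, 693.0 and 432.4 in 3 and 4, and 846.3 and 759.2 in 5 and 6. The sham values were 394.2 and 323.6 CPM in libraries 7 and 8, 255.3 and 433.9 in 9 and 10, and 411.6 and 119.9 in 11 and 12. The arms met at one point, where library 4 lay just under library 10, and the other 5 AngII libraries lay above all sham libraries. The means were 634.9 ± 156.8 CPM in AngII and 323.1 ± 119.2 in sham (SD, n = 6), a fitted difference of 0.96 ± 0.29 on the log2 scale. Without library 12, the lowest of all, this difference was 0.76.

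A short annotated RNA inside Neat1, Gm27505, was counted apart from it and was singled out after its values were seen. It is 110 bases long, on the same strand, and begins 731 bases after the annotated Neat1 start, so reads of the 2 genes cannot be fully told apart.
Gm27505, chr19:5844638-5844747, minus strand: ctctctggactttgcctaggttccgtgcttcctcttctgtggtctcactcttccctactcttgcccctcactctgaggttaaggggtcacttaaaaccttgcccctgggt
Its counts were 545 and 426 in libraries 1 and 2, 1417 and 2 in 3 and 4, and 285 and 979 in 5 and 6, against 1 to 12 in the sham libraries. As a share of the Neat1 count this was 0.482 to 1.37% in 5 AngII libraries, 0.00833% in library 4 and at most 0.0587% in sham. Library 4 thus sat with the sham libraries for this stretch, as it did for Neat1 itself.

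Meg3, a maternally expressed RNA that binds chromatin regulators, differed more between the arms. It stood at 15.0 and 9.17 CPM in libraries 1 and 2, 18.99 and 5.29 in 3 and 4, and 6.16 and 10.8 in 5 and 6. The sham values were 3.01 and 1.84 CPM in libraries 7 and 8, 4.16 and 4.48 in 9 and 10, and 1.67 and 0.531 in 11 and 12. The arms did not overlap, although library 4 and library 10 were close. The means were 10.9 ± 5.28 CPM in AngII and 2.62 ± 1.54 in sham (SD, n = 6), a fitted difference of 2.26 ± 0.36 on the log2 scale.

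Rian, which hosts box C/D small nucleolar RNAs and lies downstream of Meg3 on the same strand (Rian at chr12:109603940-109661716, Meg3 at chr12:109541001-109571726), did not follow it. It stood at 1.93 and 2.48 CPM in libraries 1 and 2, 2.77 and 1.46 in 3 and 4, and 0.945 and 1.56 in 5 and 6. The sham values were 1.74 and 1.74 CPM in libraries 7 and 8, 2.08 and 2.12 in 9 and 10, and 1.93 and 2.44 in 11 and 12. The sham range lay inside the AngII range, and the fitted difference was -0.15 ± 0.24 on the log2 scale, with a 95% interval from -0.67 to 0.38. Its counts were 66 to 412 per library. The ratio of Meg3 to Rian in CPM was 3.63 to 7.77 in AngII libraries (median 6.69) and 0.217 to 2.11 in sham libraries (median 1.40).

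Mirg, the most distal of the 3 and host of a microRNA cluster (chr12:109729764-109749460), was the scarcest and is given in counts. It had 87 and 43 counts in libraries 1 and 2, 113 and 25 in 3 and 4, and 37 and 35 in 5 and 6. In sham it had 0 counts in libraries 7, 8 and 12, 5 and 11 in libraries 9 and 10, and 4 in library 11. The arms did not overlap in CPM either, with 0.278 to 0.849 in AngII and at most 0.200 in sham. Pooled over libraries, 340 against 20 counts gave a 10.5-fold higher level in AngII, with an exact 95% interval of 6.67 to 17.4 that covers counting error only. With vehicle alone, 130 counts against none gave a level at least 25.2-fold higher in AngII by the exact 95% limit. Against a floor of 3 counts over both sham libraries it was 31.5-fold. These values, too, leave out the spread between libraries. Mirg passed the filter on low counts only through its AngII libraries.

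These 3 RNAs span 18 microRNA hairpins of RefSeq on their strand, 1 in Meg3, 3 in Rian and 14 in Mirg. GENCODE places a further microRNA gene, Mir1906-1, within Meg3 on the same strand. For each of the 3 RNAs, 1 mature microRNA is shown to mark what the transcript carries, with the seed (bases 2 to 8) in capitals.
mmu-miR-770-5p, in Meg3: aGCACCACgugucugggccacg
mmu-miR-370-3p, in Rian: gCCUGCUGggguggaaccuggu
mmu-miR-410-3p, in Mirg: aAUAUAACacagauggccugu
The 3 seeds differ. These libraries do not measure mature microRNAs: the 16 small RNA genes of the domain in the matrix (chr12:109452823-110281097) held 37 counts in all 12 libraries together, and none more than 10.

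Kcnq1ot1, the antisense RNA of the other imprinted domain, was the scarcest per base of transcript. It stood at 1.01 and 0.607 CPM in libraries 1 and 2, 1.26 and 0.342 in 3 and 4, and 0.916 and 1.16 in 5 and 6. The sham values were 0.193 and 0.4999 CPM in libraries 7 and 8, 0.155 and 1.31 in 9 and 10, and 0.920 and 0.363 in 11 and 12. The highest of all 12 values was in a sham library, number 10, and the interval of the fitted difference, 0.68 ± 0.53, included 0 (95% interval -0.47 to 1.84). It was 0.29 without library 3 and 1.44 without library 10. The gene (chr7:143203458-143296549, minus strand) lies within Kcnq1, which is on the other strand, and shares 121 exon bases with it. The strand setting of the counting is not given, so reads of those bases cannot be told apart.

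Firre, at chrX:50555744-50635321 on the minus strand, had the largest fitted difference of the 7 genes with counts in every group, 2.66 ± 0.31 on the log2 scale. It stood at 27.2 and 15.7 CPM in libraries 1 and 2, 19.8 and 5.72 in 3 and 4, and 17.01 and 27.6 in 5 and 6. The sham values were 4.30 and 3.52 CPM in libraries 7 and 8, 2.28 and 4.18 in 9 and 10, and 2.13 and 1.70 in 11 and 12. The arms did not overlap, and library 4 again stood lowest in AngII. The means were 18.9 ± 8.17 CPM in AngII and 3.02 ± 1.12 in sham (SD, n = 6).

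Tug1, at chr11:3639785-3649673 on the minus strand, stood at 5.00 and 5.48 CPM in libraries 1 and 2, 8.60 and 2.38 in 3 and 4, and 5.00 and 7.04 in 5 and 6. The sham values were 2.41 and 1.62 CPM in libraries 7 and 8, 3.08 and 2.61 in 9 and 10, and 2.87 and 3.49 in 11 and 12. Of the AngII libraries 5 of 6 lay above all sham libraries, and library 4 lay among them. The fitted difference was 1.09 ± 0.28 on the log2 scale. Tug1 shares 483 exon bases with Morc2a on the other strand, with the same limit for reads there.

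In edgeR's quasi-likelihood test over 16723 genes (Benjamini-Hochberg, threshold 0.05), 6 of the 8 were past the threshold as higher in AngII over the 3 doses, where 13.4% of all genes were higher and 7.53% lower. Rian and Kcnq1ot1 were not. Neat1 was no longer past it without library 1, 3, 7, 8, 9 or 12 (0.76 to 1.02), nor Tug1 without library 8 (1.00). In 4 of the 8 the AngII libraries lay all above the sham libraries, against 4.44% of all genes, and in 2.92% of genes they lay all below. The median fitted difference of the 8 was 1.09 and that of all genes 0.10. Since the 8 were picked on this contrast, nothing is read from these counts. Dose by dose, none of the 8 was past the threshold with vehicle or under 5 mg. Of all genes 0.0478% were higher and 0.012% lower with vehicle, and 0% each way under 5 mg. At an unadjusted p below 0.05 there were 5 of the 8 with vehicle and 3 under 5 mg, against 2752 and 2004 of all 16723 genes. Under 50 mg Meg3 and Firre were past it (4.04% of genes were higher and 1.38% lower), but only Firre without library 6 and none of the 8 without library 12. Leaving out library 3 or 4 brought the count with vehicle to 4 or 5, and leaving out library 4 that under 5 mg to 3. With DESeq2 in place of edgeR the counts were 4 with vehicle, 1 under 5 mg and 4 under 50 mg. The share of all genes that DESeq2 called at each dose is not given here, so nothing is read from this change.

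**Figure D2:**
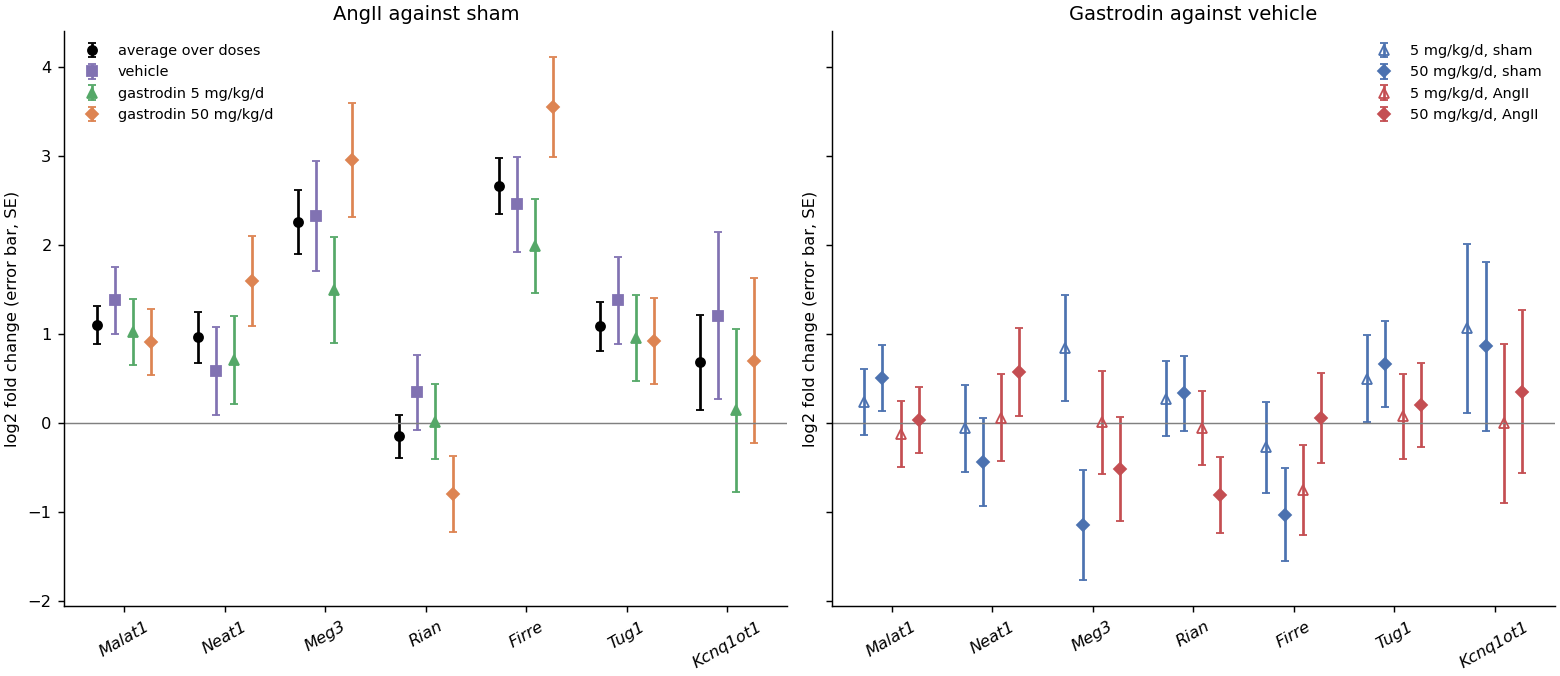
Fitted log2 fold change with its SE for the 7 RNAs with counts in every group, AngII against sham on the left (average and each dose) and gastrodin against vehicle within each arm on the right. AngII differences centre on 0.96 to 2.66 for Malat1, Neat1, Meg3, Firre and Tug1 averaged over doses, and the gastrodin differences lie around 0.

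Within the AngII arm the levels of several of the 8 ran along with the other-gene share, and the strength of that differed between genes. In sham the picture was mixed. From the lowest share (library 9) to the highest (library 8), Meg3 went from 4.16 to 1.84 CPM and Tug1 from 3.08 to 1.62. Neat1 went from 255.3 to 323.6 CPM, Firre from 2.28 to 3.52 and Kcnq1ot1 from 0.155 to 0.4999. Among the 3 AngII libraries whose share lay within the sham range (2, 4 and 5), all 3 stood above every sham library for Malat1, Meg3, Mirg and Firre. For Neat1 and Tug1 it was 2 of 3, for Rian 1 and for Kcnq1ot1 none. With libraries 1, 3 and 6 left out together, a choice made after seeing the data, the fitted differences were 0.99 ± 0.22 for Malat1, 0.85 ± 0.31 for Neat1, 1.56 ± 0.30 for Meg3, 1.99 ± 0.22 for Firre and 0.61 ± 0.24 for Tug1. With all 12 libraries they were 1.10 for Malat1, 0.96 for Neat1, 2.26 for Meg3, 2.66 for Firre and 1.09 for Tug1. The 8 were picked on this contrast, so these values are a description. Whether the share had a part in the levels was not tested. With the other-gene share as a covariate, also chosen afterwards, the values were close to those without libraries 1, 3 and 6. They were 1.09 for Malat1, 0.88 for Neat1, 1.58 for Meg3, 1.95 for Firre, 0.52 for Tug1 and -0.03 for Kcnq1ot1. With the share of counts outside the 37 mitochondrial genes as the covariate they were 1.16 for Malat1, 1.07 for Neat1, 2.00 for Meg3, 2.32 for Firre and 0.81 for Tug1. Within the AngII arm Malat1 did not follow the share, with 287.8 CPM at the highest share (library 3) and 285.0 at the lowest (library 4), whereas Meg3, Tug1 and Kcnq1ot1 had their highest value in library 3 and their lowest in library 4. Neat1 and Firre were also lowest in library 4, and Rian was highest in library 3.

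**Figure D3:**
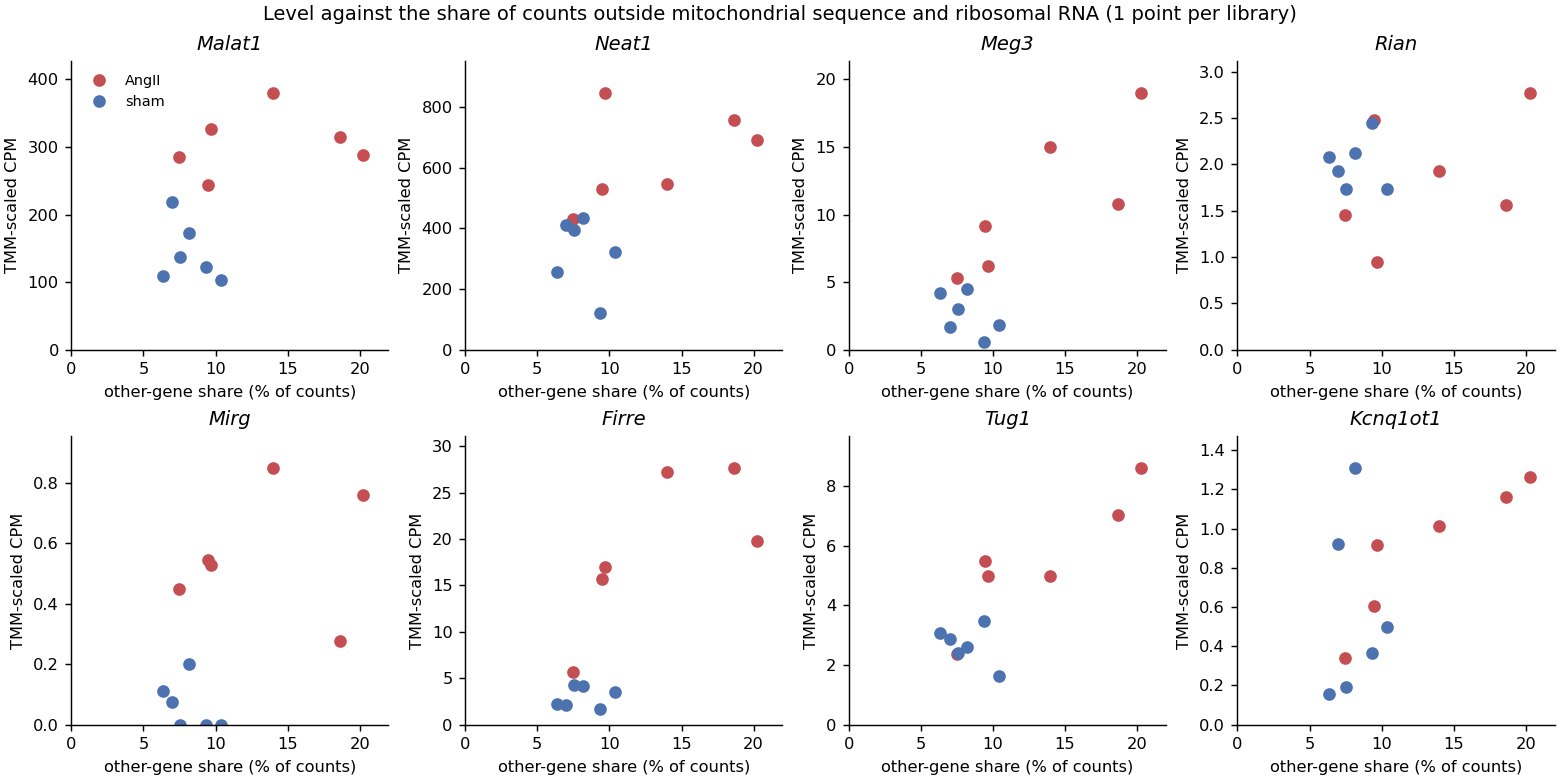
Level of each RNA in TMM-scaled CPM against the library's other-gene share, the percent of counts outside mitochondrial sequence and ribosomal RNA loci; 1 point per library, AngII in red and sham in blue. At shares within the sham range the AngII points of Malat1 and Firre still lie above the sham points, and those of Rian and Kcnq1ot1 do not.

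Levels between genes were compared per length, on the deposited TPM, which divides a gene's counts by its length and scales each library to one total. Their mean over the 12 libraries ran Malat1 35.8, Neat1 25.8, Firre 16.0, Meg3 5.86, Rian 1.28, Tug1 0.738, Mirg 0.103 and Kcnq1ot1 0.00914, which put Malat1 at rank 365 and Kcnq1ot1 at rank 14269 of 14271 genes. Each neighbour in this order was above the next in 9 to 12 of 12 libraries, with Mirg above Kcnq1ot1 in 9. The order rests on the length each gene was given. The ratio of counts to TPM returns it up to a constant, set here by taking Malat1 at its whole length of 6983 bases. Firre was scaled by 884 bases, while its merged exons span 8247, and Meg3 by 1498 of 18089 bases and Rian by 1602 of 18234. With Malat1 so set, the length used for Neat1 and Kcnq1ot1 was that of the whole gene. Per kilobase of merged exons, the AngII means were 43.9 CPM for Malat1, 30.6 for Neat1, 2.29 for Firre, 0.603 for Meg3, 0.573 for Tug1, 0.102 for Rian, 0.0779 for Mirg and 0.00949 for Kcnq1ot1, so Firre lay more than 10-fold under Neat1 on that scale and Tug1 stood above Rian.

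None of the 8 was past the threshold for gastrodin against vehicle. In sham hearts, none of 8 was called at 5 mg (0% of genes were higher and 0.0179% lower) or at 50 mg (0.0837% and 0.0658%). In AngII hearts none was called at 5 mg (0.00598% higher and 0% lower) or at 50 mg (0.00598% each way). At an unadjusted p below 0.05 there was 1 of 8 in sham at 5 mg, Mirg, against 689 of all 16723 genes. There was none in the other 3 comparisons, and DESeq2 called none either. The intervals are wide. For Malat1 the difference at 50 mg was 0.51 ± 0.37 in sham (95% interval -0.30 to 1.31) and 0.04 ± 0.37 in AngII (-0.76 to 0.84). For Neat1 it was -0.43 ± 0.49 in sham and 0.57 ± 0.49 in AngII. Meg3 had the lowest value at 50 mg in sham, -1.15 ± 0.62 (-2.48 to 0.19), followed by Firre at -1.03 ± 0.52. Meg3 was at -2.18 without library 11 and -0.53 without library 12, where Firre was lower at -0.87. Rian at 50 mg in AngII was at -0.81 ± 0.42 (-1.72 to 0.11), both of its libraries there lying among the 3 lowest of the AngII arm. Mirg in sham went from no count in 2 vehicle libraries to 16 counts at 5 mg and 4 counts at 50 mg. At 5 mg its level was at least 5.07-fold higher by the exact 95% limit (7.02-fold against the floor of 3 counts). That limit covers counting error only and leaves out the spread between libraries. The test of whether gastrodin acted differently in the 2 arms called none of the 8 at either dose. Of all genes 0.00598% were higher and 0% lower at 5 mg, and 0.00598% and 0.0239% at 50 mg. At an unadjusted p below 0.05 there was 1 of the 8 at each dose, again Mirg, against 514 and 1159 of all 16723 genes. Mirg had no count in sham with vehicle and passed the filter only through its AngII libraries, so nothing is read from its p values.

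Companion genes were grouped by ties to these RNAs, to their loci or to RNA handling in the nucleus, with other noncoding RNAs beside them. Their AngII difference over the 3 doses was tested with edgeR in the same fit. The lists were drawn up with earlier results of these data known, so their counts and p values are a description and no independent test. Over 9 such lists, which share a few genes, 36 of 111 tested genes were called, 30 of them higher, where 13.4% of all genes were higher and 7.53% lower. The largest group change was in mRNAs known to be kept in the nucleus or to hold detained introns, introns whose removal is delayed while the RNA waits in the nucleus. Of 17 such mRNAs 13 were higher, none lower and 4 not called, with a median of 1.34 against 0.10 for all genes. Clk4, a kinase of splicing factors, rose by 2.30 ± 0.25 (adjusted p 0.000512), from 2.03 to 3.92 CPM in sham to 7.06 to 26.4 in AngII. Ccnl2, a cyclin of speckles, rose by 2.74 ± 0.34 (adjusted p 0.00094), as did the kinase gene Clk1 by 2.22 ± 0.28 and Ogt, the O-GlcNAc transferase, by 1.78 ± 0.26. Without libraries 1, 3 and 6 the count was 9 of 17, and with the other-gene share as a covariate 8. Fewer of all genes were called higher in those fits as well, 402 with the covariate against 2241 in the main fit. Over the 23 alternatives Clk4 spanned 1.87 to 2.57, Ccnl2 1.99 to 2.98, Clk1 1.67 to 2.45 and Ogt 1.21 to 2.01. These 4 had the smallest p of the list on this contrast, so this is no sign of stability.

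Of 20 genes for nuclear speckle and splicing proteins 9 were higher, none lower and 11 not called, with a median of 0.43. Luc7l, a U1 snRNP-associated protein, rose by 1.64 ± 0.18 (adjusted p 0.000526), Srsf11 by 1.54 ± 0.27, Sf3b1, a U2 snRNP subunit, by 1.44 ± 0.27 and Srrm1 by 1.24 ± 0.24. Without libraries 1, 3 and 6 the count was 4, and with the covariate 2, where Luc7l and Sf3b1 were still called. Fewer of all genes were called in those fits as well. Of the paraspeckle proteins, partners of Neat1, 3 of 17 were higher, 2 lower and 12 not called (median -0.01), near the shares of all genes. Ewsr1 rose by 0.85 ± 0.18 (adjusted p 0.00729), Smarca4 by 0.71 ± 0.17 and Dazap1 by 0.60 ± 0.18. Hnrnpa1 fell by 1.01 on the log2 scale (SE 0.20, adjusted p 0.0055), and Hnrnpm fell by 0.51. The core paraspeckle proteins were not called, with Nono at -0.50 ± 0.18, Sfpq at -0.01 ± 0.19 and Pspc1 at -0.28 ± 0.26. Dazap1 kept its call only without library 2 or 4 (0.45 to 0.73 over the 12 fits that each leave out 1 library), and Hnrnpm only without library 4 (-0.61 to -0.39). The sign of Sfpq turned in several alternatives, and the number of all genes called changed between alternatives as well. Without libraries 1, 3 and 6 no paraspeckle gene was called higher and 1 lower, and without libraries 4 and 12 it was 3 higher and 5 lower.

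Factors of nuclear RNA retention and decay were also near the shares of all genes, with 2 of 13 higher (Zcchc8 by 1.18 ± 0.22 and the export receptor Nxf1 by 1.03 ± 0.20) and 2 lower (Pabpn1 at -0.79 ± 0.23 and Tpr at -0.52 ± 0.16). Pabpn1 lost its call without library 1, 2, 3, 6, 7, 9 or 11 (-0.97 to -0.64 over such fits), and Tpr without any 1 library but number 4 (-0.60 to -0.43). None of 10 chromatin partners of these RNAs was called in edgeR. DESeq2 called 1 higher, where it called 2805 of all genes higher and 1790 lower. At an unadjusted p below 0.05 in edgeR there were 2 of the 10, against 6137 of all 16723 genes. Of 5 tested genes in or beside the Dlk1-Dio3 domain, only Dio3os lies within the span given above, and it was not called. Of the flanking genes Dync1h1, which encodes a motor protein, was higher by 0.90 ± 0.20 (adjusted p 0.0103), and Ppp2r5c, Begain and Wdr25 were not called. None of 9 genes of the Kcnq1 domain was called in edgeR, and DESeq2 called 2 higher. At an unadjusted p below 0.05 in edgeR there were 2 of the 9, against 6137 of all 16723 genes. Kcnq1 itself was at 0.47 ± 0.24 and Cdkn1c, which Kcnq1ot1 silences on the paternal copy, at 0.30 ± 0.22.

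Other noncoding RNAs were called about as often as all genes, of which 13.4% were higher in AngII and 7.53% lower. Of 11 nuclear or chromatin-bound ones 2 were higher, 1 lower and 8 not called, with a median of 0.90, or 0.70 when the genes at 0 in a whole group are taken at the ratio of their pooled counts. Snhg14, the long host of the Snord116 and Snord115 RNAs, had 669 counts in AngII and 22 in sham. Its fitted difference was 4.08 ± 0.93, and 3.44 to 6.18 with 1 library left out. Like Mirg, it passed the filter on low counts only through its AngII libraries, so nothing is read from its call. Dleu2 rose by 0.58 ± 0.19. Peg13, an imprinted RNA, was lower at -0.58 ± 0.18 (adjusted p 0.038). Snhg14 was not called without libraries 1, 3 and 6 together (3.12) or with the other-gene covariate (3.14). Dleu2 lost its call without any 1 of the libraries (0.51 to 0.67), and Peg13 without any but number 4 (-0.69 to -0.47). Of 13 small nucleolar RNA hosts and cytoplasmic RNAs 1 was higher (Snhg17, 1.60 ± 0.38), 1 lower (2900097C17Rik, -0.97 ± 0.27) and 11 not called, with a median of 0.10, that of all genes. Snhg17 was not called without library 1 (1.45), nor 2900097C17Rik without library 1 (-0.85) or 6 (-0.84).

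**Figure D4:**
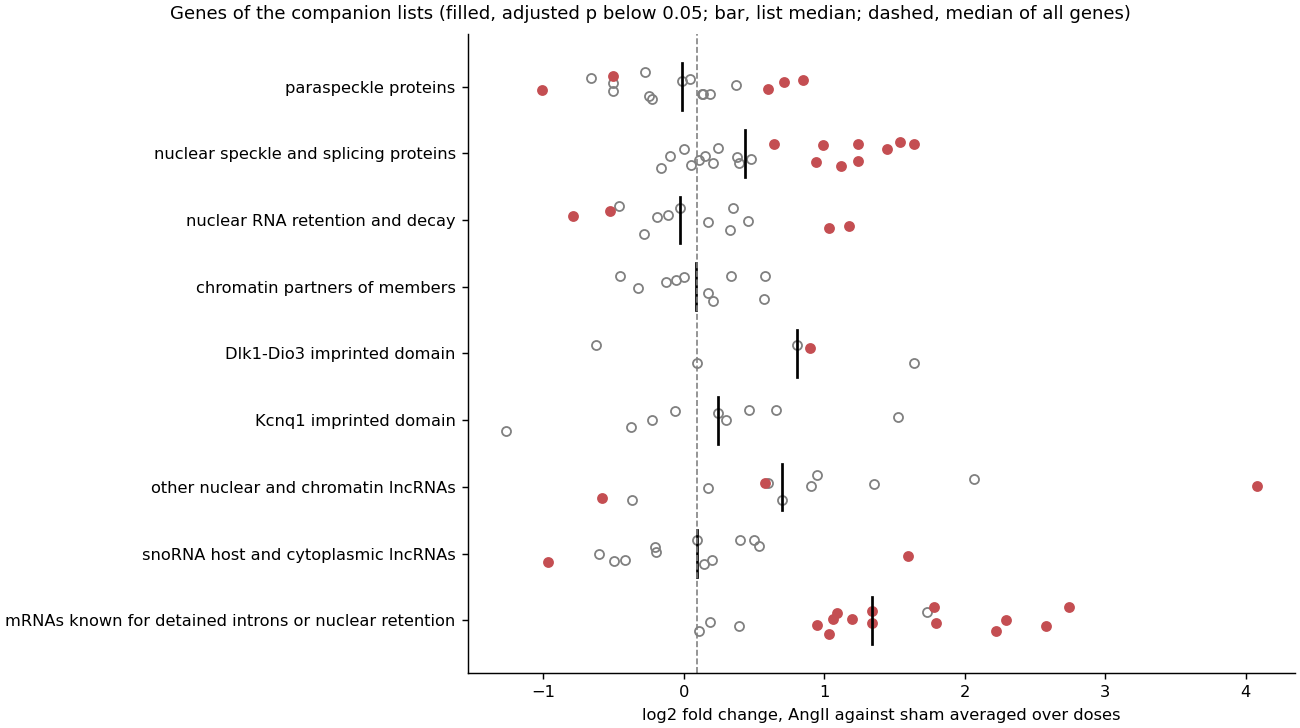
AngII against sham, log2 fold change averaged over doses, for every tested gene of the 9 companion lists (1 point per gene; genes at 0 in a whole group are drawn at the log2 ratio of their pooled counts). Filled points are past an adjusted p of 0.05, the bar is the list's median and the dashed line the median of all genes, 0.10. The detained-intron list lies mostly right of the line, with a median of 1.34, and the paraspeckle list on both sides of it.

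Markers of several heart cell types differed between the arms as well, where 13.4% of all genes were higher in AngII and 7.53% lower. Cardiomyocyte markers, of which 3 of 9 were higher and 1 lower, were present in every library, with a summed level of 5012 to 8593 CPM in AngII and 3462 to 6437 in sham. Endothelial markers summed to 146.8 to 338.2 CPM in AngII and 109.5 to 137.3 in sham, with 8 of 12 higher, and smooth muscle and pericyte markers to 329.6 to 551.8 and 234.1 to 381.2, with 6 of 12 higher. Fibroblast markers were lower in 7 of 11 (216.8 to 338.4 CPM in AngII, 208.1 to 750.9 in sham) and macrophage markers in 3 of 11 (29.3 to 109.9 and 41.3 to 165.8). Red cell markers were higher in 5 of 7 (1028 to 3348 and 289.6 to 1742). Of the scarcer types, none of 5 tested lymphocyte markers was called in edgeR (1.29 to 2.68 and 0.111 to 1.29). At an unadjusted p below 0.05 there were 2 of these 5, against 6137 of all 16723 genes. Lower was 1 of 5 tested nerve and glia markers (4.46 to 10.1 and 2.44 to 6.64). Higher from a low level were 3 of 3 tested lung epithelium markers (2.01 to 12.6 and 0.0559 to 2.51), each with no count in at least 1 group. Whether these differences had a part in the levels of the 8 RNAs was not tested.

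For each of the 8, the 3 genes with the most similar profile over the 12 libraries were found by Pearson's r of log2 CPM among 7155 to 7157 genes, with those overlapping the member left out. The libraries share depth and composition, so these values describe likeness only. For Firre they were Appl2, Adamts7 and Arhgap26 (r 0.993, 0.991 and 0.991), the closest matches of any of the 8. Those of Malat1 were Adar, an RNA-editing enzyme (0.952), Slc26a10 and Paxx, and those of Neat1 were Snapc4 (0.967), Rogdi and Pafah2. Those of Meg3 were Mum1 (0.963), Limk2 and Zer1, of Mirg Fuk (0.944), Fam120b and Lgals8, of Tug1 Rfx1 (0.960), Gpr4 and Resf1, and of Kcnq1ot1 Elac2 (0.920), Nav1 and Ddx56. Rian stood apart here too, nearest to Creb3l2 (0.923), Cox4i2 and Atcayos. Among the 8 themselves, r was highest for Meg3 with Firre (0.879) and for Malat1 with Mirg (0.861), while Rian lay between -0.41 (with Neat1) and 0.16 (with Tug1) and was at -0.03 with Meg3, its neighbour.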

How the data were processed

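Total RNA from mouse hearts was made into 12 TruSeq libraries and read as paired ends, per the labels' protocols. The submitters' processing notes name HISAT2 2.2.1, StringTie 2.1.3 and GRCm38.p6. No source used here gives the counting program, its annotation and strand setting, or how RNA was selected. The authors deposited a matrix of counts, not normalized, with 27504 genes, and a TPM table of 14271 genes. Positions are from GENCODE M21 (GRCm38), and sequences from its transcripts and RefSeq tables.

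The count model was edgeR 4.0.16 (R 4.3.3): filterByExpr, which left 16723 genes, TMM, 1 mean per group over all 12 libraries (6 residual degrees of freedom) and a 2-sided quasi-likelihood test, Benjamini-Hochberg adjusted, with a threshold of 0.05. SE is the log2 fold change over the root of F. The code was tested on simulated data. Alternatives used DESeq2 1.42.0 and limma 3.58.1, the latter on voom values or log2(TPM + 1). Ribosomal RNA loci, mitochondrial genes and 7 genes of mitochondrial sequence stayed in the totals except where an alternative leaves them out. Libraries of a group differed by far more than sampling noise. The 8 RNAs and all lists were chosen with earlier results of these data known. The text names all 8 RNAs, up to 4 genes of each companion list by smallest p, list genes next to a member, and a few more given with their values.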

Additional observations from a re-analysis of the deposited data

How the results depend on the processing

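No paired analysis was possible because every library has its own number. Up to 24 alternatives were run, of which 2 were chosen after seeing the data (libraries 1, 3 and 6 left out together, and the other-gene share as a covariate), and the cause of a change was not tested. A group left with 1 library was assumed to vary like the others. The average over doses uses all groups, so a fit of only the groups compared gave it no separate value. Gastrodin against vehicle and its difference between arms called 0 of the 8 RNAs in every alternative. Neat1 lost its AngII call over doses in 8 of 23 and Tug1 in 5. The 8 were picked on this contrast, so the calls that Malat1, Meg3 and Firre kept are no sign of stability. The count of 6 of 8 was 3 without libraries 1, 3 and 6 and 4 to 6 with 1 library left out. With vehicle, 0 of 8 became 4 with DESeq2, 5 with no filter, 5 without libraries 4 and 12, 3 with only the groups compared, 1 with the other-gene covariate and 0 to 5 with 1 library left out. Under 5 mg, 0 became 1 with DESeq2, 2 with no filter, 3 without libraries 4 and 12 and 0 to 3 with 1 left out. Under 50 mg, 2 became 4 with DESeq2, 0 on TPM, 1 with the other-gene covariate and 0 to 3 with 1 left out. The 36 companion calls became 22 on TPM, 14 without libraries 1, 3 and 6, 10 with the other-gene covariate and 27 to 43 with 1 left out. Of 23 named companion genes with a call, 6 kept it throughout. On TPM the median of all genes was 0.22 and 97.9% of calls were higher, against 0.10 and 64.0%. Over doses, 2241 of all genes were higher and 1260 lower in the main fit, 2805 and 1790 with DESeq2, and 402 and 80 with the other-gene covariate. For single doses the all-gene calls of each alternative are not given here. Nothing is therefore read from the changed counts of RNAs. Named companion genes were mostly those with the smallest p, so kept calls are no sign of stability.

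Several small differences turned sign, 0 of them past the threshold. AngII against sham over doses (log2) was 0.0474 for Rian without libraries 4 and 12, 0.27 on TPM, and -0.0292 for Kcnq1ot1 with the other-gene covariate. Among companion genes, TPM gave Hnrnpm 0.0735, Nono 0.0785, Sfpq 0.43, Pspc1 0.0807, Tpr 0.0454 and Peg13 0.0132. Sfpq was at 0.0142 with voom, 0.0123 with no filter, 0.0165 with mitochondrial, ribosomal RNA and haemoglobin genes left out, 0.0471 without libraries 4 and 12, and -0.15 to 0.20 with 1 left out. AngII against sham under 5 mg was, for Rian, -0.00134 with DESeq2 size factors, -0.35 with the share outside mitochondrial genes as covariate, -0.48 with the other-gene covariate and -0.55 without libraries 1, 3 and 6. For Kcnq1ot1 the last 3 were -0.37, -0.89 and -1.11, and Tug1 was at -0.28 without libraries 1, 3 and 6. Under 50 mg Kcnq1ot1 was at -0.0768 with the other-gene covariate. With 1 library left out, the 5 mg difference spanned -0.52 to 0.40 for Rian, -0.25 to 1.60 for Tug1 and -1.10 to 2.38 for Kcnq1ot1.

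For 5 mg against vehicle in AngII, Meg3 was at -0.00404 with DESeq2 size factors, -0.00605 with DESeq2, -0.17 with voom, -0.0408 on TPM, -0.23 with the first covariate, -0.43 with the other-gene covariate and -0.80 without libraries 1, 3 and 6. Kcnq1ot1 was at -0.012 with DESeq2 size factors, -0.0175 with DESeq2 and, for the last 3, -0.31, -0.51 and -0.83. Tug1 was at -0.0648 with voom and, for the last 3, -0.30, -0.39 and -1.21. Rian was at 0.0168 with voom, 0.0917 on TPM and 0.33 without libraries 4 and 12, Neat1 at -0.0143 with voom and -0.30 without libraries 1, 3 and 6, and Malat1 at 0.22 without them. For 50 mg in AngII, Firre was at -0.12 and -0.21 with the covariates, and Tug1 at -0.0625 with the other-gene covariate and -0.11 without libraries 1, 3 and 6. For 50 mg in sham, Neat1 was at 0.20 without libraries 4 and 12. With 1 library left out, 5 mg in AngII spanned -0.43 to 0.23 for Malat1, -0.34 to 0.36 for Neat1, -1.22 to 0.65 for Meg3, -0.62 to 0.33 for Rian, -1.16 to 0.72 for Tug1 and -1.27 to 0.64 for Kcnq1ot1. At 50 mg in AngII it spanned -0.24 to 0.39 for Malat1, -0.32 to 0.51 for Firre and -0.0508 to 0.43 for Tug1. In sham, 5 mg spanned -0.13 to 0.53 for Malat1, -0.49 to 0.27 for Neat1, -0.78 to 0.10 for Firre and -1.17 to 1.93 for Kcnq1ot1, and 50 mg -1.58 to 0.20 for Neat1. Depth limits Mirg and Kcnq1ot1 most, and Mirg is given by counts rather than by a fitted fold.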
